A study of Homo sapiens with 4 samples.

Results

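The retinoblastoma (RB) proteins and the E2F transcription factors were examined in HEK293 cells, a line of human embryonic kidney origin that was transformed with adenovirus DNA. It carries the adenovirus gene E1A, whose protein binds RB family proteins. The genes were RB1, RBL1 and RBL2 of the RB family and E2F1 to E2F7 of the E2F family, taken by the RefSeq accession in the name of each array probe. Of the 10 genes listed, 9 were matched, by 10 targets and 30 probes, out of 17217 named genes on the array. E2F6 had no matched accession and was not analysed here. RNA came from 4 biological replicates of 1 untreated group, each from its own plate, grown to confluence in DMEM with serum and hybridised in a single colour to its own array. All samples are 1 cell line with no treated or virus-free counterpart, so every comparison below is with a detection threshold and none is between conditions. E1A itself was not analysed here.

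RB1 (pRB), RBL1 (p107) and RBL2 (p130) are called pocket proteins after the fold with which they hold E2F factors. Bound to E2F, they keep genes for DNA synthesis and cell division silent. Cyclin-dependent kinases (CDKs) release E2F by phosphorylating the pocket protein late in the G1 phase, and E1A releases it by occupying the pocket. E2F1, E2F2 and E2F3 are known as activators and are held mostly by pRB. E2F4 and E2F5 lack a strong activating role and are held mostly by p107 and p130. E2F6, E2F7 and E2F8 repress without a pocket protein, and E2F7 and E2F8 bind DNA without the DP partner that the other E2F proteins need.

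E2F proteins recognise DNA letters that several of their own genes carry just before their start. The motif searched was TTTCCCGC, TTTCGCGC, TTTGCCGC or TTTGGCGC on either strand, in the 250 bases before and 50 bases after the annotated gene start (RefSeq, GRCh38.p14). Of all 35116 promoter entries 3.31% held it, and of all genes with an entry 3.99% did. Of the 9 listed genes with an entry, E2F6 among them, 4 did, and those were E2F1, E2F2, E2F3 and RBL1. The stretches are shown because they are the letters through which E2F and pocket proteins are known to act on their own family. Capitals mark the matches, the gene's strand is written, and each stretch ends before the gene start.
E2F1, chr20:33686387-33686429, minus strand: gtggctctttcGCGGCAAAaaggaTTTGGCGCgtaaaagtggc
RBL1, chr20:37095998-37096034, minus strand: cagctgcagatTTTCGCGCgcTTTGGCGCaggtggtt
E2F2, chr1:23531257-23531286, minus strand: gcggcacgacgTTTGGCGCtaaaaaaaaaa
E2F3, chr6:20401815-20401844, plus strand: ttgaaaagccgGCGGGAAAtccgagtttcg
E2F1 and RBL1 held 2 matches each, and E2F2 and E2F3 held 1. The matches of E2F1 began before the gene start at positions -33 and -20, and those of RBL1 at -26 and -16. E2F3 had a further promoter entry without a match. RB1, RBL2, E2F4, E2F6 and E2F7 had no match, which says only that these letters were not in these windows.

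Detection followed the study's rule. Each array had a baseline, which was 2 SD above the mean of 10 seminal protein genes that the cells were thought not to transcribe. It lay at 9.47, 9.94, 10.69 and 10.32 log2 units on replicates 1 to 4. Of these controls, AFG2A (SPATA5) and SPATA13 ran from 9.21 to 10.73 and the other 8 from 6.05 to 7.72. Without SPATA5 and SPATA13 the mean baseline was 7.78 in place of 10.10. A gene below the baseline is thus not shown to be untranscribed. A gene's distance is its log2 level minus the baseline of the same array, and a gene was detected where the mean distance over the 4 arrays was above 0. Probes differ in affinity, so levels of different genes are not compared with each other, and a larger distance is no measure of more transcript.

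All 9 measured genes of both families were detected, 8 of them with every array above its baseline. Across the array 52.7% of genes were detected, and 45.0% had every array above its baseline. The limma test, one-sided against 0 with Benjamini-Hochberg adjustment over all 17217 genes, called 8 of the 9, where it called 45.9% of all genes. The exception was E2F5. The test gave every gene the same standard error, 0.351 log2 units, and left out the error of the baseline. An adjusted p below therefore does not measure the SD printed beside it. The distances of the 9 genes ran from 0.66 to 3.64 log2 units with a median of 2.39, while the median over all genes was 0.26. Against the highest control gene instead of the baseline, 8 of the 9 were above it on all 4 arrays, as were 45.3% of all genes.

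**Figure D1:**
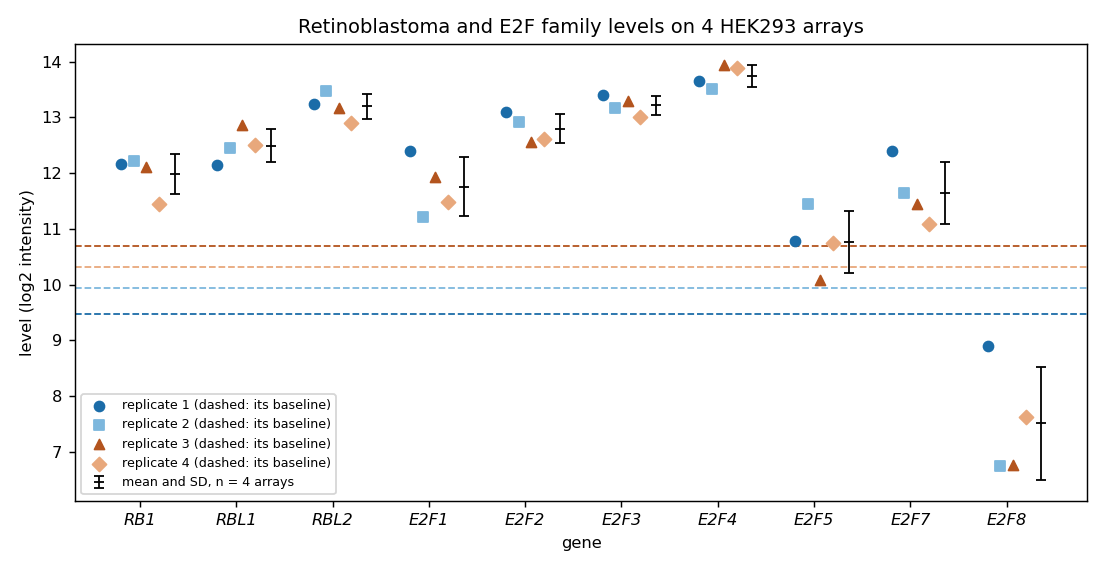
Log2 level (vertical axis) of each RB and E2F gene and of E2F8 (horizontal axis) on the 4 HEK293 arrays, with the mean and SD (n = 4) in black and each array's baseline as a dashed line in the colour of that array. All points lie above their own baseline for 8 genes, the point of replicate 3 lies below its baseline for E2F5, and all 4 points lie below for E2F8.

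Of the pocket proteins, RB1 encodes pRB, the tumour suppressor lost in retinoblastoma. Its level was 12.17, 12.21 and 12.12 log2 units on replicates 1 to 3 and 11.45 on replicate 4. Replicates 1 to 3 lay close together and replicate 4 was lower, yet above its baseline by 1.13. The mean distance of RB1 was 1.88 ± 0.73 log2 units (SD, n = 4, limma adjusted p = 1.28e-07). One of its probes carried most of that distance, at 2.82, and the others stood at 1.01 and 0.91. With the median of the probes in place of their mean, the distance of RB1 was 1.25 (limma adjusted p = 0.00527).

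RBL1 encodes p107, whose gene is itself known as an E2F target. It had 2 targets, each for another RefSeq transcript of the gene. On replicates 1 to 4 the level of the first was 13.18, 13.32, 13.67 and 13.52 log2 units, and that of the second was 11.13, 11.58, 12.06 and 11.51. In both the lowest level was on replicate 1 and the highest on replicate 3. The targets have different probes, so their levels do not compare the transcripts. The mean distance was 3.32 ± 0.31 for the first target and 1.47 ± 0.23 for the second (SD, n = 4 for each), and 2.39 ± 0.25 for the gene (SD, n = 4, limma adjusted p = 2.03e-11). The SD for the gene was the smallest among the 9 genes on the distance scale, and RBL1 alone was averaged over 2 targets. On the level scale the SD of RBL1 was 0.29, which was the median of the 9. The weakest probe of the second target stood at 8.24 on replicate 3 and at 10.53 to 11.03 on the other arrays, and its mean distance was 0.02.

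RBL2 encodes p130, the pocket protein known for quiescent cells. Its level was 13.25, 13.47, 13.17 and 12.91 log2 units on replicates 1 to 4. All 3 of its probes were above the baseline on all 4 arrays, by means of 3.64, 3.20 and 1.88. The mean distance of RBL2 was 3.09 ± 0.66 (SD, n = 4, limma adjusted p = 4.24e-18). All 3 pocket protein genes were thus called by the test.

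Among the activators, E2F1 had a level of 12.40, 11.21, 11.94 and 11.49 log2 units on replicates 1 to 4. The arrays spread over 1.20 log2 units, and replicates 1 and 3 were both above replicates 2 and 4. The distance of E2F1 was 2.93 on replicate 1 and between 1.17 and 1.27 on the others. Its mean distance was 1.65 ± 0.85 (SD, n = 4, limma adjusted p = 3.59e-06). It was 1.23 without replicate 1 (limma adjusted p = 0.000721). All 3 probes of E2F1 were above the baseline on all 4 arrays, by means of 2.39, 1.06 and 1.01.

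E2F2 is a close relative of E2F1. Its level was 13.10, 12.92, 12.56 and 12.61 log2 units on replicates 1 to 4, and its mean distance was 2.69 ± 0.78 (SD, n = 4, limma adjusted p = 4.51e-14). Both of replicates 1 and 2 were above both of replicates 3 and 4. Its 3 probes were above the baseline on all 4 arrays.

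E2F3 is the remaining activator, known to be made in more than one form from separate promoters. Its level was 13.41, 13.16, 13.30 and 13.01 log2 units on replicates 1 to 4, with an SD of 0.17 that was the smallest of the 9 genes on the level scale. The mean distance of E2F3 was 3.11 ± 0.61 (SD, n = 4, limma adjusted p = 2.47e-18). This value rested on 1 probe, which stood 4.44 above the baseline, while the others stood at 1.17 and 0.73 and each fell below the baseline on replicate 4. The small SD of the level rested on the same probe, whose SD was 0.15, against 0.83 and 0.87 for the others. With the median of the probes the distance of E2F3 was 1.30 (limma adjusted p = 0.00802). All 3 activator genes were called by the test, and like E2F1, E2F3 had both of replicates 1 and 3 above replicates 2 and 4. Over all genes 22.2% had that order of arrays.

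E2F4 and E2F5 make the E2F proteins that p107 and p130 hold in resting cells. E2F4 had a level of 13.66, 13.51, 13.94 and 13.88 log2 units on replicates 1 to 4. Its mean distance was 3.64 ± 0.40 (SD, n = 4, limma adjusted p = 1.7e-24). The 3 probes of E2F4 were above the baseline on all 4 arrays, by unlike means of 4.72, 3.12 and 1.19. The distance of E2F4 was at least 3.25 on each array.

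E2F5 stood apart from the other 8 genes. Its level was 10.78, 11.45, 10.08 and 10.75 log2 units on replicates 1 to 4. The distances of E2F5 were 1.31, 1.51, -0.61 and 0.43, so that it lay above the baseline on replicates 1, 2 and 4 and below it on replicate 3. The mean distance of 0.66 ± 0.97 (SD, n = 4) was within the spread between arrays and did not pass the limma test (adjusted p = 0.0644). Its probes gave mean distances of 0.99, 0.94 and -0.63. E2F5 was called without replicate 3, at 1.08 (limma adjusted p = 0.00456), and with the mean of log2 probe values, at 0.77 (limma adjusted p = 0.0391). It lay at 0.38 without replicate 2 (limma adjusted p = 0.399) and at -0.088 on replicates 3 and 4 alone.

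E2F7 and E2F8 encode the atypical repressors, which are known to act together and to lower E2F1. E2F7 had a level of 12.39, 11.64, 11.45 and 11.09 log2 units on replicates 1 to 4. Its mean distance was 1.54 ± 1.03 (SD, n = 4, limma adjusted p = 1.67e-05), with 2.92 on replicate 1 and 0.76 on replicate 3. On replicates 3 and 4 alone it was 0.76 (limma adjusted p = 0.0491). One of the probes of E2F7 was above the baseline on all 4 arrays, and both others were below it on replicate 3.

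E2F8, which was not on the gene list, was at 8.91, 6.75, 6.76 and 7.62 log2 units. It lay below the baseline on all 4 arrays, by a mean distance of -2.59 ± 1.45 (SD, n = 4), and none of its 3 probes reached the baseline on any array. The highest level was again on replicate 1, at a distance of -0.56. E2F8 remained below the baseline under every alternative run, between -3.91 and -0.27. The control genes other than AFG2A (SPATA5) and SPATA13 ran from 6.05 to 7.72, and the levels of E2F8 on replicates 2, 3 and 4 fell within that range.

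**Figure D2:**
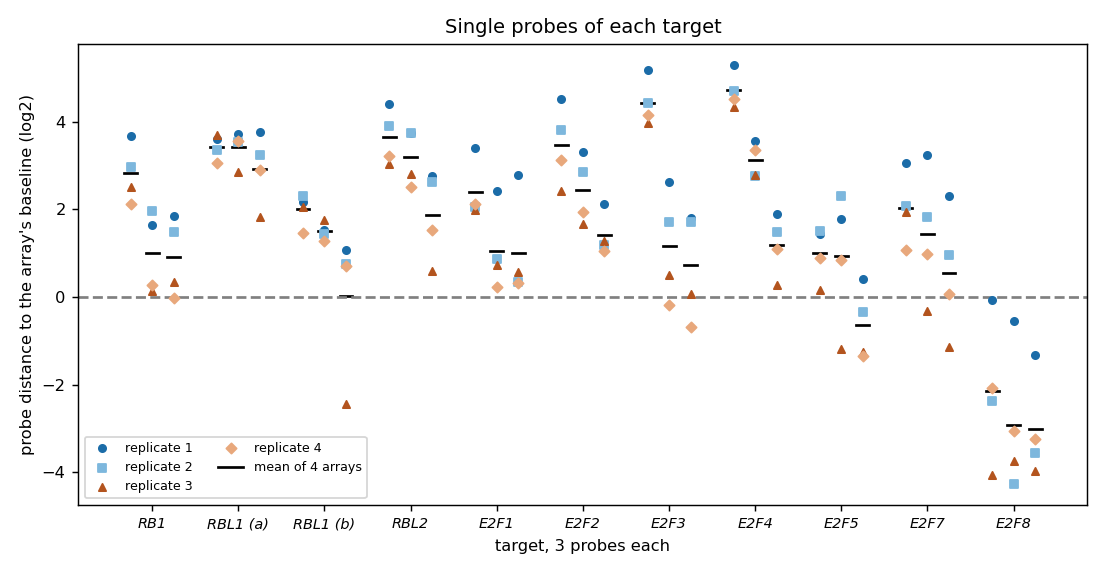
Distance of every probe to the baseline of its array (vertical axis, log2) for the 3 probes of each target (horizontal axis), with 1 point per array and the mean of 4 arrays as a bar; RBL1 (a) and (b) are its 2 targets. Probes of E2F4, RBL2 and the first RBL1 target lie above 0 on all arrays. The probe means spread most for E2F3 and E2F4, over 3.71 and 3.53 log2 units.

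Over the 30 probes of the 9 genes, 29 had a mean above the baseline and 22 were above it on all 4 arrays. The probe with its mean below was one of E2F5. For 4 genes, E2F1, E2F2, E2F4 and RBL2, every probe was above the baseline on every array. The median SD over arrays of the 9 genes was 0.29 log2 units on the level scale, against 0.42 over all genes. The value over all genes includes genes that were not detected, so the difference is not shown to be particular to these families.

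The baseline moved with the arrays and the distances moved with it. The distance was highest on replicate 1, which had the lowest baseline, for 8 of the 9 genes and for 69.7% of all genes. It was lowest on replicate 3, which had the highest baseline, for 7 of the 9 and for 58.2% of all genes. On the level scale, before subtraction, 4 of the 9 were highest on replicate 1, where 22.5% of all genes were. Replicates 1 and 2 shared 1 distribution of values and replicates 3 and 4 another. The mean level was higher on the first pair for 7 of the 9 genes and for 45.1% of all genes. RBL1 and E2F4 were the exceptions, at 12.30 and 12.69 for RBL1 and at 13.59 and 13.91 for E2F4 on the first and second pair. The share over all genes includes genes that were not detected. Among the widely used reference genes given below, all but GAPDH were also higher on the first pair. The order of the pairs was therefore not particular to the RB and E2F genes. What the pairs share beyond their distribution is not stated, and its part in these values was not tested.

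The dimer partners come next, since E2F1 to E2F6 bind DNA with a DP protein. The counts for this and the following lists stand beside the 52.7% of all genes that were detected and the 45.9% that were called. TFDP1, the main partner, stood 4.89 ± 0.58 log2 units above the baseline (SD, n = 4). TFDP3, a relative of TFDP1 with a similar sequence, stood at 2.76 ± 0.70 (SD, n = 4), and cross-hybridisation between them was not examined. With the mean of log2 probe values TFDP3 stood at 1.05 and with their median at 1.15, both still called (limma adjusted p = 0.00453 and 0.00652). TFDP2 had a distance of -0.46 ± 0.66 (SD, n = 4) and was above the baseline on 1 of 4 arrays. The limma test called 2 of these 3 genes. Under each lower baseline that was run TFDP2 lay above it, at 0.86 with 1 SD in place of 2 SD and at up to 1.87 without SPATA5 and SPATA13 as controls.

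The DREAM complex joins p107 or p130 and E2F4 or E2F5 to a core of 5 proteins called MuvB. Of the core, 4 of 5 were detected and called by the test, with a median distance of 1.12 log2 units. RBBP4, a histone-binding protein, stood at 4.48 ± 0.80 and LIN9 at 2.30 ± 0.69 (SD, n = 4 for each). LIN52 and LIN37 were closer to the baseline, at 1.12 ± 0.56 and 1.07 ± 0.64 (SD, n = 4 for each). On replicates 3 and 4 alone LIN52 and LIN37 stood at 0.67 and 0.55 and were not called (limma adjusted p = 0.0757 and 0.145). Nor were they called on replicates 1 and 3 alone, at 1.23 and 1.02 (limma adjusted p = 0.0641 and 0.124). LIN54, the subunit that binds DNA, was below the baseline on all 4 arrays, at -2.16 ± 0.58 (SD, n = 4), though without SPATA5 and SPATA13 as controls it stood at 0.17. MYBL2 and FOXM1, which take the place of p107 or p130 on MuvB in dividing cells, stood at 5.64 ± 0.62 and 4.24 ± 1.03 (SD, n = 4 for each). MYBL1 had no matched accession.

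Kinases that release E2F from pocket proteins were detected throughout. All 7 matched genes of the cyclin D, cyclin E and CDK list were above the baseline on all 4 arrays and were called, with a median distance of 3.48 log2 units. CDK4 stood at 5.03 ± 0.63 and CDK6 at 3.06 ± 0.45, and CDK2, the partner of cyclin E, at 4.92 ± 0.52 (SD, n = 4 for each). The D cyclins ran from 2.02 for CCND3 to 4.54 for CCND2, with CCND1 at 3.48, and CCNE1 stood at 2.96 ± 0.60 (SD, n = 4).

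Of the 7 inhibitors of these kinases 5 were detected and 3 were called, with a median distance of 0.65 log2 units. The share called was near that of all genes, 45.9%. CDKN1A (p21), an inhibitor known as a p53 target, stood at 3.61 ± 0.79 (SD, n = 4). CDKN2A, the gene of p16, which blocks CDK4 and CDK6, stood at 1.70 ± 0.42 and CDKN2C (p18) at 0.99 ± 0.77 (SD, n = 4 for each). CDKN2A also encodes ARF from the same locus, and its value here does not separate them. With the highest target of a gene in place of the mean of its targets, CDKN2A stood at 3.31 and CDKN2C at 2.92. The call of CDKN2C was lost without replicate 1, at 0.63 (limma adjusted p = 0.0712), on replicates 2 and 4 alone, at 0.43 (limma adjusted p = 0.213), and on replicates 3 and 4 alone, at 0.68 (limma adjusted p = 0.0902). CDKN1B (p27) had a distance of 0.65 ± 1.18 (SD, n = 4, limma adjusted p = 0.0685), and it lay at -1.23 with the median of its probes. It stood at 0.083 without replicate 1, and it was called without replicate 3, at 0.79 (limma adjusted p = 0.0391), and without replicate 4, at 0.99 (limma adjusted p = 0.0302). CDKN2B (p15) was at levels of 11.55, 9.59, 11.52 and 8.66 on replicates 1 to 4, so that it was above the baseline on replicates 1 and 3 alone and had a mean distance of 0.22 ± 1.6 (SD, n = 4, limma adjusted p = 0.519), or -0.39 without replicate 1. CDKN2D (p19) and CDKN1C (p57) had mean distances of -1.19 and -3.62, the former turning to 0.13 with a baseline of 1 SD.

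Pocket proteins silence genes with chromatin enzymes. Of the corepressor list, all 10 matched genes were above the baseline on all 4 arrays and called, with a median distance of 4.58 log2 units. The histone deacetylases HDAC1, HDAC2 and HDAC3 stood at 4.63, 4.94 and 5.12, and the histone methyltransferase SUV39H1 at 3.36. The remodelling ATPases SMARCA4 (BRG1) and SMARCA2 (BRM) stood at 5.11 and 4.03. ARID4A, known as an RB-binding protein, stood at 1.68 ± 0.54 (SD, n = 4).

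The Polycomb complex PRC1.6 is the known partner of E2F6. Of its 8 matched genes 7 were detected and called, with a median distance of 3.00 log2 units. MAX, which binds DNA, stood at 3.61 ± 0.40, PCGF6 at 2.84 ± 0.67 and L3MBTL2 at 1.68 ± 0.39 (SD, n = 4 for each), the last at 1.00 with the median of its probes. RNF2, a ubiquitin ligase of Polycomb complexes, had a distance of -0.29 ± 0.44 (SD, n = 4), with 2 of 4 arrays above their baseline, and stood at 1.03 with a baseline of 1 SD, while its relative RING1 stood at 2.50 ± 0.57 (SD, n = 4).

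E1A binds other host proteins besides the pocket proteins. All 7 of those listed were detected and 6 were called, with a median distance of 2.95 log2 units. The acetyltransferases EP300 (p300) and CREBBP (CBP) stood at 2.95 ± 0.72 and 1.35 ± 0.93 (SD, n = 4 for each). EP400 and TRRAP, of another acetyltransferase complex, stood at 2.73 ± 0.47 and 3.88 ± 0.59, and the corepressors CTBP1 and CTBP2 at 3.84 ± 0.73 and 3.93 ± 0.81 (SD, n = 4 for each). KAT2B (PCAF) had a distance of 0.44 ± 0.74 (SD, n = 4, limma adjusted p = 0.214), and between 0.21 and 0.69 with 1 replicate left out. On replicates 3 and 4 alone CREBBP stood at 0.65 and was not called (limma adjusted p = 0.101).

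E2F targets of the G1/S boundary followed. All 23 listed genes were above the baseline on all 4 arrays and were called by the test, with distances from 1.85 to 5.45 log2 units and a median of 3.72. The helicase subunits MCM7, MCM3 and MCM4 stood at 5.45, 5.33 and 4.80, thymidylate synthase (TYMS) at 5.10 and the sliding clamp PCNA at 4.58. The origin proteins ORC1 and CDC6 stood at 1.85 and 2.4, the licensing inhibitor GMNN at 2.61, the histone methyltransferase EZH2 at 2.65 and the licensing factor CDT1 at 2.79. Of 20 of these genes with a promoter entry, 14 held the motif given above and 6 did not, and of all genes named on the array with an entry 5.59% held it. The genes were listed as known E2F targets, so a high share came with their choice and is no result of these arrays. E2F1 targets that act in cell death gave 5 of 5 detected and 3 called, with a median of 1.5. APAF1, the core of the apoptosome, stood at 1.54 ± 0.84 and BBC3 (PUMA) at 1.5 ± 0.99 (SD, n = 4 for each). BCL2L11 (BIM) and TP73 had distances of 0.62 and 0.53 and were not called (limma adjusted p = 0.085 and 0.138). BCL2L11 was called with the highest target of a gene, at 2.00 (limma adjusted p = 4.04e-08), and without replicate 3, at 0.78 (limma adjusted p = 0.0422). TP73 was called without replicate 2, at 0.96 (limma adjusted p = 0.0339), and stood at 0.31 without replicate 3 and at 0.33 without replicate 4.

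**Figure D3:**
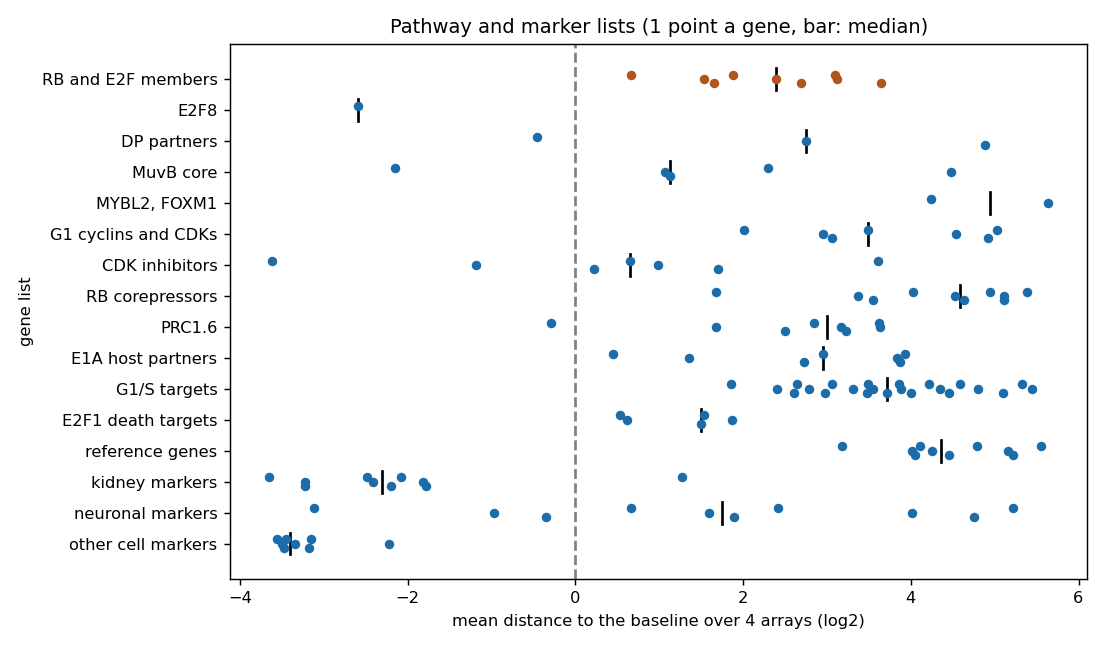
Mean distance to the baseline over 4 arrays (horizontal axis, log2) of each gene in the RB and E2F families and in the pathway and marker lists (vertical axis), with 1 point per gene and the median as a bar. All genes of the G1/S target, cyclin and CDK, corepressor and reference lists lie above 0. Outside the marker lists, E2F8, LIN54 and CDKN1C lie below -2. All markers of other cells, most kidney markers and the neuronal marker STMN2 lie below -2 as well.

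As a check of the label, 1 of 10 kidney markers (LRP2, at 1.27), 7 of 10 neuronal markers and 0 of 8 markers of blood, endothelium, liver and stroma were detected. The limma test called 1, 6 and 0 of them. NEFM was the neuronal marker detected but not called, at 0.66 ± 3.08 (SD, n = 4, limma adjusted p = 0.0644), with 2 of 4 arrays above the baseline. UMOD and AQP2, which define parts of the mature kidney, were below the baseline on all 4 arrays. All 10 reference genes were detected, from 3.17 for TBP to 5.55 for ACTB. The neurofilament gene NEFM differed between arrays, at 13.57 and 13.09 on replicates 1 and 3 and at 8.32 and 8.08 on replicates 2 and 4. MAP2, another neuronal marker, was at 10.82 and 10.91 on the former and at 8.24 and 9.07 on the latter, and CDKN2B had the same order. Of all genes 22.2% had both of replicates 1 and 3 above both of 2 and 4, and 18.5% had the opposite order. On replicates 1 and 3 alone and 2 and 4 alone all 9 RB and E2F genes were detected as well. Pearson's r across genes was 0.949 to 0.977 between arrays, genes being no independent replicates.

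The number of the 9 genes called moved with the baseline, the probe summary and the arrays used. With a baseline of 3 SD, 8 were detected and 5 were called. E2F5 then lay below, at -0.66, and RB1, E2F1 and E2F7 stood at 0.57, 0.34 and 0.22 without passing the test (limma adjusted p = 0.215, 0.541 and 0.777). With olfactory receptor genes as controls, with Y-linked genes or without SPATA5 and SPATA13, all 9 were detected and called. All 9 were also called with the mean of log2 probe values, without replicate 3, and on replicates 1 and 2 alone or 2 and 4 alone. E2F2, E2F3, E2F4, RBL1 and RBL2 were called under every alternative run.

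**Figure D4:**
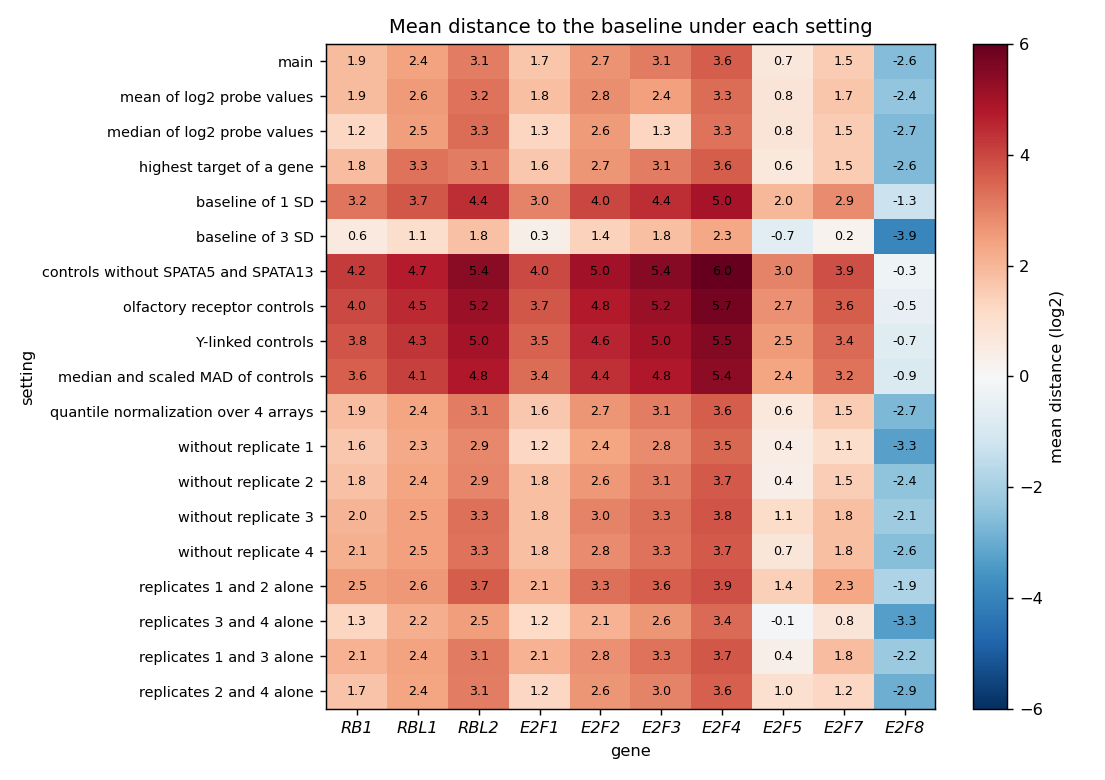
Mean distance to the baseline (colour and number, log2) of each gene (horizontal axis) under the reported setting (top row) and each alternative (other rows). Values are above 0 in every row for 8 genes, E2F5 is below 0 with a baseline of 3 SD and on replicates 3 and 4 alone, and E2F8 is below 0 in every row.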

How the data were processed

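RNA from 4 HEK293 replicates was measured on NimbleGen arrays with 60-base probes, 3 per target, designed on the HG18 gene catalogue. The authors deposited log2 probe values made from images with NimbleScan. The submitters' processing notes name RMA without a role, and no background correction or normalization is described. When sorted, the values of replicates 1 and 2 differed by less than 0.01 at 99.97% of ranks, those of replicates 3 and 4 at 99.99%, and those of any other pair at no more than 1.25%, as if each pair had been quantile normalized on its own.

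Probe names were matched by unversioned accession to RefSeq genes of GRCh38.p14, used for names. Probes of a target were averaged on the linear scale before log2, and targets of a gene on the log2 scale. Of 11 control genes 10 were matched. Distances were tested against 0 with limma 3.58 in R 4.3, one-sided, and an adjusted p under 0.05 was called. The prior had infinite degrees of freedom, so every gene took a standard error of 0.351. The error of the baseline did not enter, and an array's baseline shifts all its genes together, so the tests are not independent. A sign-flip test on 4 arrays has a smallest p of 0.0625. The script was tested on simulated data. Every gene of the RB and E2F families was named, any gene of the pathway lists could be, and of the target, reference and marker lists those with the 5 largest and 5 smallest distances. Members, lists and alternatives were chosen with earlier results of these data known. Single spots were not checked for background or saturation, and the number of arrays limits the precision.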

Additional observations from a re-analysis of the deposited data

Results flagged for a closer look

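Levels and distances of the 9 RB and E2F genes and E2F8 were examined, 20 measures in all, for an array whose gap to the nearest other array is larger, relative to the range, than Dixon's test allows for 4 samples. Chance alone marks about 1 in 20. The level of RB1 on replicate 4 (11.45) stood apart below the other arrays, with a ratio of gap to range of 0.877. The distance of RB1 had its largest ratio, 0.271, on replicate 1. The distance of E2F1 on replicate 1 (2.93) stood apart above the others, with a ratio of 0.944, while the ratio for its level was 0.391. Replicate 1 had the lowest baseline, at 9.47 log2 units, and the part of the baseline in the E2F1 value was not tested.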

How the results depend on the processing

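No paired analysis was possible because the arrays form 1 group. For the 9 RB and E2F genes 166 alternative distances kept their side of the baseline and of the test, 9 gained a call (all E2F5), 3 lost it (RB1, E2F1 and E2F7 with a baseline of 3 SD) and 2 turned below the baseline. Those were E2F5 at -0.66 with 3 SD and at -0.088 on replicates 3 and 4 alone. Of the counts and the baseline, 372 values stayed within 1.5 times (counts) or 1 SD (baseline) and 21 moved. Among the other named pathway genes 1014 values stayed, 35 gained and 17 lost a call and 33 changed side. The causes were not tested beyond the height of the baseline itself.

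With 3 SD the baseline was 11.42 log2 units and limma called 5 RB and E2F genes and 4922 of all genes. Detected then were 2 MuvB genes, 2 CDK inhibitors, 3 cell death targets and 0 kidney markers, and the distances were -0.24 for LIN37, -0.19 for LIN52, -0.67 for CDKN1B, -1.09 for CDKN2B, -0.33 for CDKN2C, -0.87 for KAT2B, -0.79 for TP73 and -0.70 for BCL2L11. With 1 SD the baseline was 8.79, and TFDP2 stood at 0.86, CDKN2D at 0.13 and RNF2 at 1.03. Without SPATA5 and SPATA13 it was 7.78, with 5 kidney markers and 1 marker of other cells detected, TFDP2 at 1.87, LIN54 at 0.17, CDKN2D at 1.14 and RNF2 at 2.04. With olfactory receptor controls it was 8.02, with 4 kidney markers, TFDP2 at 1.63, CDKN2D at 0.90 and RNF2 at 1.80. With Y-linked controls it was 8.23, with 3 kidney markers, TFDP2 at 1.42, CDKN2D at 0.69 and RNF2 at 1.59. With control genes summarised by median and scaled MAD (median absolute deviation) it was 8.40, with TFDP2 at 1.25, CDKN2D at 0.52 and RNF2 at 1.42.

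CDKN1B lay at -0.67 with the mean and at -1.23 with the median of log2 probe values. Left out in turn, replicates gave CDKN2B from -0.39, without replicate 1, to 0.85, without replicate 4, and CDKN1B from 0.083, without replicate 1, to 0.99, without replicate 4. The call of CDKN2C was lost without replicate 1, at 0.63. On replicates 1 and 2 alone RNF2 stood at 0.084 and TP73 at -0.11. On replicates 3 and 4 alone 3 CDK inhibitors were detected, with CDKN1B at -0.065, CDKN2B at -0.42 and KAT2B at -0.19, and on replicates 2 and 4 alone CDKN2B was at -1.005. Counted only where above the baseline on all 4 arrays, or by limma with an intensity trend and robust prior, 3 CDK inhibitors and 3 cell death targets were left in each case.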

Other observations

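The E2F motif was also set against detection over the array. Of 772 named genes with the motif in a promoter entry, 553 (71.6%) were detected, and their median distance was 1.67 log2 units. Of 13035 genes with an entry but no match, 7035 (54.0%) were detected, with a median of 0.42. For each gene the highest share of C and G among its promoter entries was taken. The median of these shares was 67.0% for the first set and 64.7% for the second, and its part in the difference was not tested. A match in any entry counted, so genes with more entries had more chances of a match, which was not adjusted for. These shares describe genes on these arrays and carry no test.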
